A study of Homo sapiens with 4 samples.

Results

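HOS is an established line of human osteosarcoma, a malignant tumour of bone. The data describe how its gene expression stood after 24 h with 600 μg/mL OGE against 0 μg/mL, with 1 array for each condition. These were 2 of the 4 arrays of the study. The others held the same doses and time in U2-OS, another established osteosarcoma line. The labels do not spell out OGE, do not name a vehicle for the 0 μg/mL culture, and do not say whether the arrays came from separate cultures. Both lines were grown in DMEM with serum, per the labels' protocols. The study set out to relate OGE to the growth of these lines. There was 1 array for each line and dose, so nothing below carries a replicate error, an SD or a test.

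The genes described were chosen by a rule of size. Of 33297 probe sets, 19460 had exactly 1 gene symbol, and the probe set with the highest mean stood for each of 18417 genes. A gene was called higher or lower when its RMA values, which are on a log2 scale, differed by 1 or more, a 2-fold difference, with the larger of its values no lower than the median of its own array. In HOS 11334 genes reached that floor. A value at each dose is a level, and a change is the level with OGE minus the level without it. Levels of different genes come from different probes and are not compared with each other.

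The array medians were 3.6 without and 3.62 with OGE in HOS, and the median change over the 18417 genes was 0.02. The mesenchymal marker VIM stood at 8.78 on both HOS arrays, and the osteoblast collagen gene COL1A1 stood at 10.01 and 9.07. The osteoblast transcription factor RUNX2 was at 4.54 and 3.94, above the array medians, while SPP1 was at 1.63 and 1.62, below them. Of 14 osteoblast markers measured, 8 reached the floor, where 11334 of all 18417 genes did. Of 10 mesenchymal markers 9 did, and of 10 muscle and fat markers 6. Epithelial markers had 4 of 9, immune markers 2 of 9 and endothelial markers 1 of 8. The floor is an array median and does not show that a marker is expressed, so these counts do not single out the osteoblast lineage. Of the epithelial keratins, KRT18 was at 9.69 and 10.09 and KRT8 at 9.38 and 9.21. KRT19 was at 3.84 and 4.10, and KRT5 at 3.07 and 2.67, below the array medians, as was CDH1 at 2.46 and 2.31. The leukocyte marker PTPRC was at 1.30 and 1.33, near the bottom of each array.

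Cells that run short of amino acids, or meet oxidants, unfolded protein or other stress, switch on several programmes that share target genes. In the integrated stress response, kinases phosphorylate the translation factor eIF2, general protein synthesis slows, and the transcription factors ATF4 and CHOP raise genes for amino acid supply and, under lasting stress, for cell death. NRF2 is a separate factor, held down by KEAP1, which raises genes for glutathione and quinone handling. Dividing cells depend on a programme of cyclins, spindle and kinetochore genes that is expressed late in the cell cycle, and bone-forming and tumour cells of this lineage secrete a collagen-rich matrix.

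With OGE, 193 genes were higher and 247 lower in HOS, which are 1.05 and 1.34 percent of all genes and 1.7 and 2.18 percent of those at the floor. Together the 440 genes were 2.39 percent of all genes. Whatever the size, 9555 of the 18417 genes had a change above 0 in HOS and 8581 a change below 0. The counts of signs given for lists below stand beside these. Most differed by little more than the threshold. Only 14 of the higher and 3 of the lower genes differed by 4-fold or more, and 41 and 26 by at least 1.5 on the log2 scale. Just inside the threshold lay KRABD4, IER3 and BTG1, each higher by 1.00, and ATP6AP2, CCNB2 and ADAMTS12, each with a change of -1. Just outside it lay CLCN7, PIM2 and OSGIN1 with 0.99, and DBI, DPM1 and C11orf58 with -0.99.

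**Figure D1:**
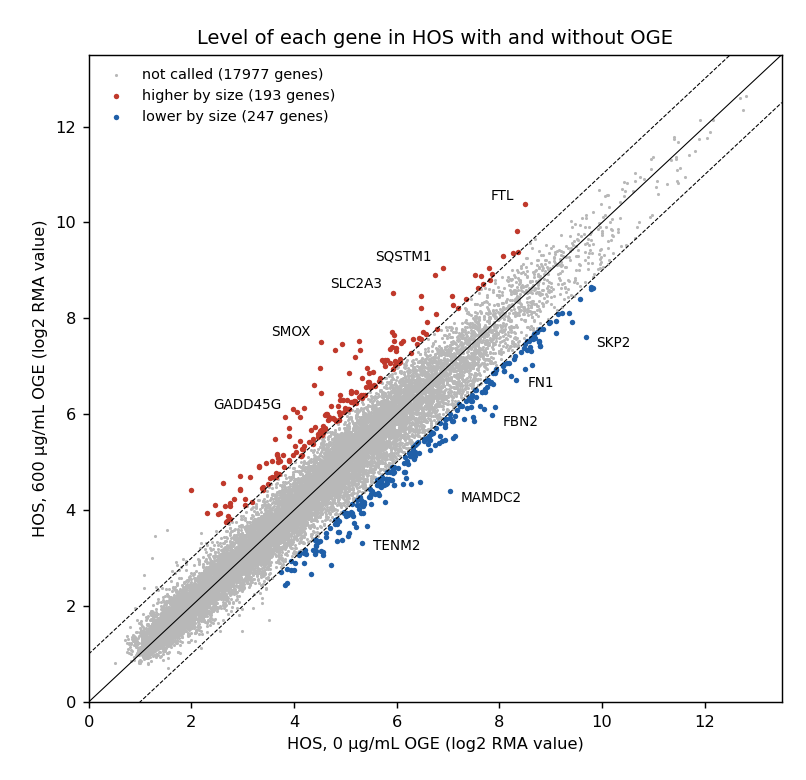
Level of each of 18417 genes in HOS without OGE (horizontal axis) and with 600 μg/mL OGE (vertical axis), as log2 RMA values of 1 array each. The solid line marks equal levels and the dashed lines 2-fold differences; 193 red points are higher and 247 blue points lower by size, and SMOX and MAMDC2 lie farthest from the line.

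SMOX, spermine oxidase, moved most among the higher genes, from 4.53 without OGE to 7.51 with it, a 7.89-fold difference. The glucose transporter SLC2A3 was at 5.93 and 8.52. PPP1R15A, the stress-induced subunit that directs a phosphatase to eIF2, was at 4.93 and 7.46. Each of these was also higher by size in U2-OS. At the other end, MAMDC2, which encodes a secreted protein with MAM domains, had control and treated levels of 7.04 and 4.40, a 6.23-fold difference. Its U2-OS levels were 2.89 and 2.99, low on both arrays. SKP2, which recruits cell cycle inhibitors to a ubiquitin ligase, was at 9.68 and 7.62 in HOS and at 7.94 and 6.24 in U2-OS, lower with OGE in each.

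**Figure D2:**
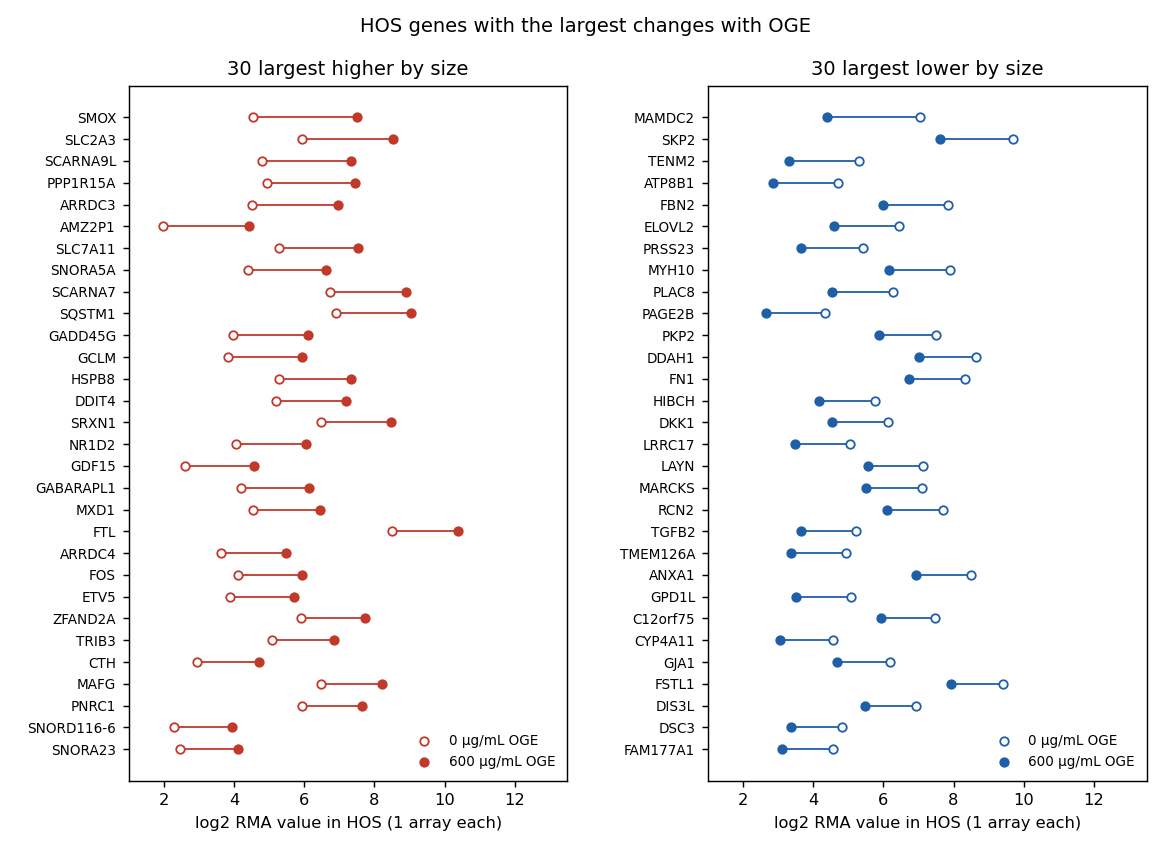
Levels of the 30 genes with the largest change in each direction in HOS, as log2 RMA values. Open circles are the array without OGE and filled circles the array with 600 μg/mL OGE; changes run from 2.98 (SMOX) down to 1.65 on the left and from -2.64 (MAMDC2) to -1.45 on the right.

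The promoters of genes that moved together were searched for short binding motifs, and 7 stretches are printed to show where the matches lie in genes named below. Each is the 250 bases before the RefSeq gene start, from GRCh38.p14, written 5′ to 3′ on the strand of the gene. GADD45G (chr9:89604762-89605011, plus strand), PPP1R15A (chr19:48872171-48872420, plus), ASNS (chr7:97872409-97872658, minus), GCLM (chr1:93909431-93909680, minus) and GABARAPL1 (chr12:10212627-10212876, plus) were higher with OGE. ANLN (chr7:36389612-36389861, plus) and BUB1B (chr15:40160819-40161068, plus) were lower. Capitals mark matches on either strand to TGATGNAA (the ATF4-CEBP composite element, in GADD45G and ASNS), TGACNNNGC (the core of the antioxidant response element, in GADD45G, PPP1R15A and GCLM), TGACGTCA (the cAMP response element, in PPP1R15A and GABARAPL1) or TTTGAA (the cell cycle homology region, in ANLN and BUB1B). Each motif is marked only in the genes named for it. TGACNNNGC also matches in ANLN, a lower gene, where it is left in lower case. No marked matches overlap in these stretches.
GADD45G: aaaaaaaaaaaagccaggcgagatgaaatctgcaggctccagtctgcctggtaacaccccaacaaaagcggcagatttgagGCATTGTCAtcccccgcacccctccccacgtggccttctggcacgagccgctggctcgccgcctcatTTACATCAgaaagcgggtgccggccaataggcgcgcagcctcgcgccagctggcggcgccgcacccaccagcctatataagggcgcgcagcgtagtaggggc
ASNS: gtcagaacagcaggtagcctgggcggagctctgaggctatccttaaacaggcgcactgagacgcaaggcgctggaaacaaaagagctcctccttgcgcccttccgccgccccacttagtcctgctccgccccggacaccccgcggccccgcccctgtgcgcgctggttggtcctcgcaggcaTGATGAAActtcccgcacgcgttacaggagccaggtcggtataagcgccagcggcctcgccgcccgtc
PPP1R15A: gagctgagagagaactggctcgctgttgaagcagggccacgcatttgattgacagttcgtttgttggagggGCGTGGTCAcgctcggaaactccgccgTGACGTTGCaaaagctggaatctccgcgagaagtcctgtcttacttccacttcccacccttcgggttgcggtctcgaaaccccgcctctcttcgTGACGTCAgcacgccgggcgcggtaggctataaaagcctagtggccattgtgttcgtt
GCLM: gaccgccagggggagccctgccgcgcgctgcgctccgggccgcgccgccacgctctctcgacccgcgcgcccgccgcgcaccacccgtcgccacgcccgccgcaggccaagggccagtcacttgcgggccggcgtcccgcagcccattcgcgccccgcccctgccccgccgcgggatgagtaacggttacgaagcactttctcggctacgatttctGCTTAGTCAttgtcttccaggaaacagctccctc
GABARAPL1: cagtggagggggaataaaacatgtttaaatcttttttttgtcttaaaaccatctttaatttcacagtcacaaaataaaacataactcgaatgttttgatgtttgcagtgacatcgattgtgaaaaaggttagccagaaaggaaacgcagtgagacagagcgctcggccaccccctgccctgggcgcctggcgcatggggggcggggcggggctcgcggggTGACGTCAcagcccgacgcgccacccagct
ANLN: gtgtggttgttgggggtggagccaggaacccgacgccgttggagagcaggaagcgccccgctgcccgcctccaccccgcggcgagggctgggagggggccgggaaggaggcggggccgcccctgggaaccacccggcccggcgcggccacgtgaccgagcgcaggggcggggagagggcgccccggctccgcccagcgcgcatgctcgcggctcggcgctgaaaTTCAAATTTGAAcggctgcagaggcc
BUB1B: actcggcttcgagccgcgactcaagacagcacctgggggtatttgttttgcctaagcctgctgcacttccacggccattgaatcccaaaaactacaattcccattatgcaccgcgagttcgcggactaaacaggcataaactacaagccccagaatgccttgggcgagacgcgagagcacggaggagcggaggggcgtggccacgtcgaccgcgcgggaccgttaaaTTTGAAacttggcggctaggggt
In ASNS, the asparagine synthetase gene, the match starts 68 bases before the gene start, and in GCLM, a subunit of the enzyme that makes the glutathione precursor, 34 bases before it. In BUB1B, a spindle checkpoint kinase, it starts 23 bases before. A match is a run of letters and does not show that a factor bound there.

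Over the measured genes with a promoter in the RefSeq table, those on chr8 left out, 20107 windows of 14237 genes were searched on both strands. The antioxidant core TGACNNNGC occurred in 11.5% of all windows, in 19.4% of the 191 windows of higher genes and in 5.99% of the 284 windows of lower genes. It was found in 33 of 139 higher genes. The E-box CACGTG stood in 7.39%, 12% and 9.15% of these sets. TTTGAA had shares of 10.9%, 6.28% and 12.3%. TGATGNAA was rare everywhere, with 2.31%, 2.62% and 0.704%, as was TGACGTCA with 2.08%, 2.62% and 2.11%. CCAAT, bound by NF-Y, had shares of 32.6%, 36.6% and 35.9%. The heat shock element was in 0.368% of all windows and in 0 windows of the called genes. These shares describe the windows and carry no test.

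The integrated stress response was read through a list around eIF2 and a list of ATF4 and CHOP genes. Of 12 eIF2 kinases, eIF2 and eIF2B subunits and phosphatase subunits, PPP1R15A was the 1 called, higher. The constitutive subunit PPP1R15B was at 6.06 and 6.91. The amino acid sensing kinase EIF2AK4 (GCN2) had a change of -0.91, the interferon-induced kinase EIF2AK2 (PKR) of -0.54, and EIF2AK3 (PERK) and EIF2AK1 (HRI) of 0.07 and 0.05. The kinases act as proteins, and their RNA levels do not measure their activity.

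In the ATF4 and CHOP network 7 of 21 members were higher and 0 lower by size, and the median change was 0.63. ATF4 itself, which is controlled mainly through translation, had a change of 0.63, and DDIT3, which encodes CHOP, stood at 5.35 without and 6.41 with OGE. The pseudokinase TRIB3, which binds and restrains AKT and ATF4, was at 5.07 and 6.86. DDIT4, an inhibitor of mTORC1 signalling, was at 5.19 and 7.20, and SESN2, a leucine sensor that also restrains mTORC1, at 4.60 and 5.69. The secreted stress cytokine GDF15 was at 2.61 and 4.57, so its level without OGE was below the array median. The glycoprotein hormone STC2 was at 6.31 and 7.57, and KLHL24, an adaptor of a ubiquitin ligase, at 3.15 and 4.69. Members below the threshold included the death receptor TNFRSF10B with 0.91, CEBPB with 0.75 and ATF3 with 0.68, while TRIB2 had a change of -0.68. In U2-OS the list had a median of 0.97, with GDF15 at 3.98 and 9.20 and DDIT4 at 5.52 and 10.41. STC2 was at 3.06 and 2.73 there, low on both arrays.

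Amino acid supply genes were next. Of 18 amino acid transporters, 5 were higher and 0 lower, with a list median of 0.235. SLC7A11, the cystine importer that feeds glutathione synthesis, was at 5.27 and 7.53, and SLC3A2, the heavy chain it pairs with, at 8.34 and 9.83. In U2-OS SLC7A11 was at 6.19 and 6.57, a change of 0.38, while SLC3A2 was at 8.24 and 10.06. The neutral amino acid transporters SLC1A4 and SLC1A5 were at 5.47 and 6.62 and at 7.81 and 8.81, and SLC43A1, a leucine transporter, at 4.87 and 5.88. The mean over the probe sets of SLC1A5 had a change of 0.71, under the threshold. Among 14 genes of serine, one-carbon, asparagine and cysteine synthesis 4 were higher and 0 lower. PHGDH, which opens serine synthesis, was at 8.06 and 9.29, and the mitochondrial SHMT2, which passes a carbon from serine to folate, at 7.68 and 8.71. ASNS was at 5.95 and 7.52, and CTH, which makes cysteine from cystathionine, at 2.94 and 4.71. All 5 transporters and all 4 enzymes had changes above 0 in U2-OS, and SLC3A2, SLC1A5 and CTH were also called there.

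The aminoacyl-tRNA synthetases, which charge tRNAs and hold several ATF4 targets, divided. None of the 19 cytosolic members was called, and 10 had changes above 0 and 9 below. CARS1 had a change of 0.84, SARS1 of 0.74, AARS1 of 0.69 and MARS1 of 0.62, against RARS1 with -0.77, FARSB with -0.61 and IARS1 with -0.55. The list median was 0.10 in each line.

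The lists of glutathione, thioredoxin and NADPH genes hold many known NRF2 targets by choice. GCLM was at 3.83 and 5.94, SRXN1, which restores overoxidised peroxiredoxin, at 6.47 and 8.46, and the quinone reductase NQO1 at 6.13 and 7.52. The glutathione transferase GSTM3 was at 4.34 and 5.68. Of 20 NRF2, thioredoxin and NADPH genes, 2 were higher by size and 18 had a change above 0, with a median of 0.45. KEAP1, the NRF2 inhibitor, had a change of 0.73, the epoxide hydrolase EPHX1 of 0.75 and the NRF2 target OSGIN1 of 0.99. Of 17 glutathione genes 2 were higher and 1 lower: the lower one was GGCT, which degrades gamma-glutamyl amino acids, at 6.88 and 5.44. GCLC, the catalytic partner of GCLM, had a change of 0.65 and glutathione reductase GSR of 0.63. MAFG, a small MAF protein that pairs with NRF2 on DNA, was at 6.47 and 8.22, and its other probe sets had changes of 1.33 and 0.63. In U2-OS GCLM had a change of 0.79, SRXN1 of 1.17 and NQO1 of 0.25, so of these only SRXN1 was called there.

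Of 14 heme and iron genes 2 were higher and 0 lower. FTL, the ferritin light chain that stores iron, was at 8.49 and 10.39 and HMOX1, which breaks down heme, at 5.00 and 6.14. The other 12 were not called, and the list median was -0.245. Among them the transferrin receptor TFRC had a change of -0.85, the iron transporter SLC11A2 of -0.81 and ACO1, the iron regulatory protein IRP1, of -0.68. In U2-OS HMOX1 was at 5.18 and 9.37. Of 13 polyamine genes 2 were higher and 2 lower. The higher ones were SMOX and SAT1, which acetylates spermidine and spermine and was at 3.73 and 5.02. AMD1, which supplies the aminopropyl donor, was lower at 6.60 and 5.37, and the spermine synthase SMS at 8.84 and 7.78, a call that ended after quantile normalization. The other synthesis enzymes ODC1, which makes putrescine, and SRM had changes of 0.62 and -0.20. In U2-OS SMOX and SAT1 were also called higher, with changes of 1.64 and 1.34, while AMD1 and SMS had changes of -0.22 and -0.07.

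The alpha-arrestins ARRDC3 and ARRDC4, adaptors that direct membrane proteins to degradation, were at 4.51 and 6.97 and at 3.62 and 5.48. TXNIP, the alpha-arrestin that restrains glucose uptake, was at 7.06 and 7.76, under the threshold. None of the 3 was called in U2-OS, where their changes were 0.35, 0.78 and 0.62. Of 27 glucose transport and glycolysis genes 3 were higher and 0 lower, and 21 had a change above 0. Beside SLC2A3 these were PFKFB3, which makes the activator of phosphofructokinase, at 4.95 and 6.30, and the enolase ENO2 at 5.75 and 7.10. SLC2A14, a near-identical copy of SLC2A3, was at 5.05 and 6.11, and the probes do not settle how signal divides between the copies. SLC2A1 had a change of 0.72 and ALDOA of 0.81. Hypoxia reporters had 3 of 20 members higher: NDRG1 at 6.09 and 7.49, the growth factor VEGFA at 5.45 and 6.68, and ANKRD37 at 3.81 and 4.91. BNIP3, a mitophagy receptor, had a change of 0.83 in HOS and 2.99 in U2-OS.

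Of 19 heat shock factors, chaperones and cofactors 4 were higher and 0 lower. HSPB8, a small heat shock protein that works with BAG3, was at 5.29 and 7.34, and ZFAND2A, an arsenite-inducible proteasome adaptor, at 5.91 and 7.72. The HSP70 cochaperones DNAJB1 and DNAJB4 were at 7.08 and 8.46 and at 4.55 and 5.57. BAG3 had a change of 0.83. Of the members that were not called, HSPA4L had a change of -0.88, HSPA4 of -0.71, HSP90AB1 of -0.59, HSP90AA1 of -0.47, HSPB1 of -0.11 and the constitutive HSP70 gene HSPA8 of -0.03. The 19 genes had a median of -0.03. In the endoplasmic reticulum none of 21 chaperone and degradation genes was called, and 15 had a change below 0, with a median of -0.32. PDIA6, a disulfide isomerase, was at 10.65 and 9.67, HSP90B1 at 9.21 and 8.24, and the main ER chaperone HSPA5 (BiP) at 9.92 and 9.02. HERPUD1, which serves ER-associated degradation and is also an ATF4 target, went the other way with 0.80.

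Of 20 autophagy genes 3 were higher and 0 lower. SQSTM1 (p62), a receptor for ubiquitinated cargo, was at 6.90 and 9.05, and the ATG8 family member GABARAPL1 at 4.19 and 6.14. Its relative GABARAPL2 was at 9.28 and 8.64, a change of -0.64. TFE3, a transcription factor for lysosomal genes, was at 5.48 and 6.57, and the initiating kinase ULK1 had a change of 0.62. Lysosomal genes had 2 of 25 members higher and a median of 0.28. These were the alpha-galactosidase GLA at 4.86 and 6.18, and CD68, a lysosomal membrane protein often used as a macrophage marker, at 4.81 and 5.86. Below the threshold lay HEXA with 0.95, CTSL with 0.93 and CTSD with 0.92, while proton pump subunit ATP6V1D had -0.79. SQSTM1 was also called in U2-OS, at 7.17 and 8.80. GABARAPL1 and TFE3 were not, with changes of 0.77 and 0.35.

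Immediate early transcription factors are normally induced within minutes of a stimulus. At 24 h, of 22 members 5 were higher and 0 lower, 21 had a change above 0, and the median was 0.50. FOS was at 4.12 and 5.94, FOSB at 4.54 and 5.61, and JUNB at 5.21 and 6.47. IER2 was at 5.81 and 7.14 and IER3 at 6.28 and 7.28. JUN itself had a change of 0.06 in HOS and 1.54 in U2-OS, and EGR1 changes of 0.94 and 0.51. Feedback phosphatases and inhibitors of MAP kinases had 1 of 15 called, DUSP5 at 6.58 and 7.93, and 13 with a change above 0, among them DUSP6 with 0.93 and ERRFI1 with 0.71. ETV5, an ETS factor downstream of ERK, was at 3.90 and 5.72.

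In the p53 and GADD45 list 3 of 22 members were higher and 1 lower. GADD45G, a growth arrest gene, was at 3.97 and 6.10 in HOS and at 3.52 and 3.67 in U2-OS. The CDK inhibitor CDKN1A (p21) was at 5.92 and 6.94 and the stress kinase PLK3 at 4.53 and 5.67. TIGAR, a p53 target that lowers glycolytic flux, was at 5.64 and 4.35. PMAIP1 (NOXA), a BH3-only protein, was the 1 member called of 24 BCL2 family and caspase genes, at 3.69 and 5.09. The BH3-only gene BCL2L11 (BIM) had a change of 0.89 and the survival gene MCL1 of 0.82, and the caspase activator APAF1 of -0.68. MYC was at 4.13 and 5.13, at the threshold, and MXD1, a repressor that competes with MYC for MAX, at 4.53 and 6.45. In U2-OS MYC was at 5.83 and 8.88. NF-kB and cytokine genes had 0 of 23 called, with RELA highest at 0.76. Of 20 interferon-stimulated genes, IRF1 was the 1 called, at 4.56 and 5.61, and only 6 of the list reached the floor.

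**Figure D3:**
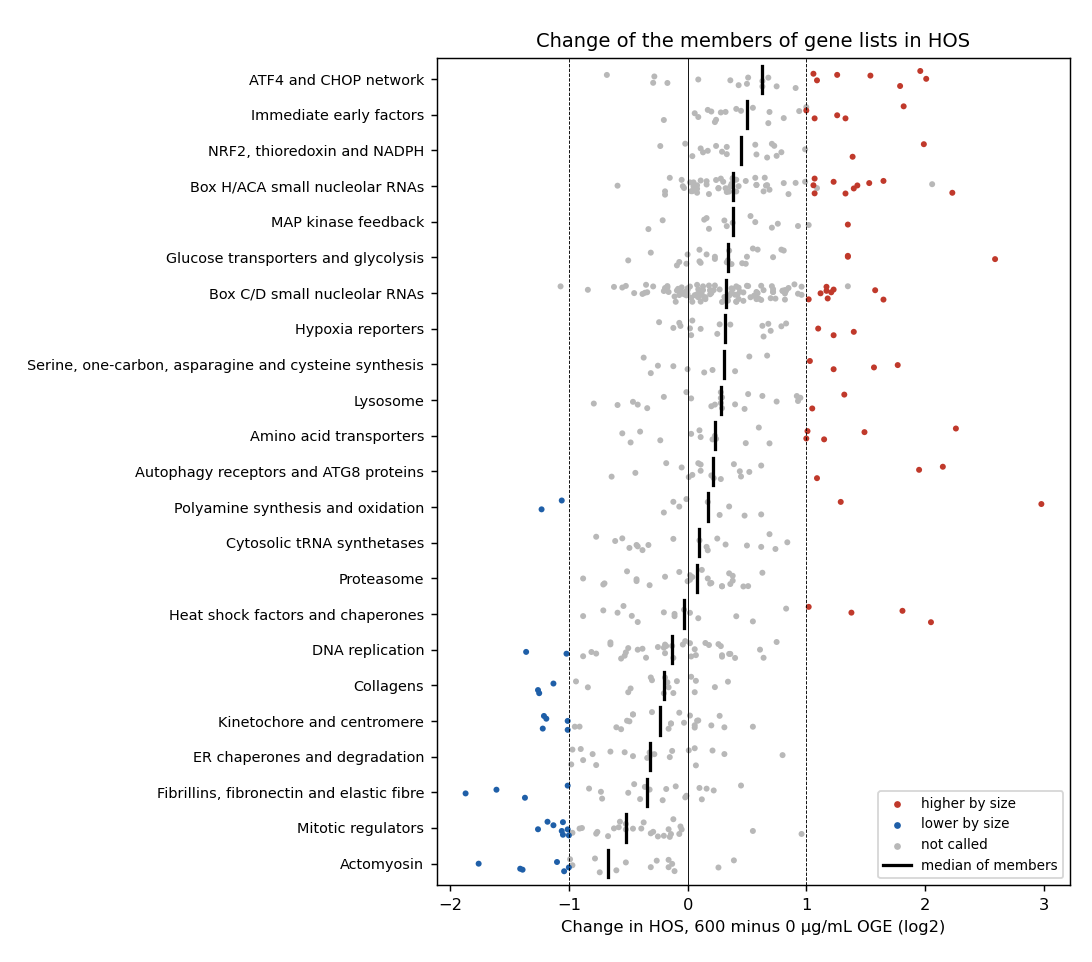
Change with OGE in HOS (600 minus 0 μg/mL, log2) of the measured members of 23 gene lists, 1 point per gene, with the median of each list as a black bar. Red points are higher and blue points lower by size, and dashed lines mark 2-fold; the list medians run from 0.63 for the ATF4 and CHOP network to -0.67 for actomyosin genes.

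Of 35 mitotic regulators 8 were lower and 0 higher by size, 33 had a change below 0, and the median was -0.52. ANLN, which anchors the contractile ring, was at 5.82 and 4.56, NEK2, a centrosome kinase, at 6.20 and 5.02, and the checkpoint kinase BUB1 at 5.70 and 4.57. The mitotic kinase AURKA was at 8.96 and 7.91, PBK at 6.77 and 5.71, BUB1B at 7.23 and 6.18, the midzone protein PRC1 at 7.94 and 6.93, and the cyclin CCNB2 at 7.87 and 6.87. ANLN had the largest of these changes, -1.26, so none was far past the threshold. After quantile normalization 4 of the 8 calls were left, and AURKA, BUB1B, CCNB2 and PRC1 fell short of 2-fold. Each had a change below 0 in U2-OS, from -0.98 for CCNB2 to -2.07 for PBK, and the list had a median of -1.10 there. Among 28 kinetochore and centromere genes 5 were lower and 0 higher: SKA2, which couples kinetochores to microtubules, at 7.07 and 5.85, CENPI at 5.70 and 4.49, NUF2 at 4.63 and 3.44, ZWILCH at 5.61 and 4.60, and CENPF at 4.12 and 3.11. With a floor at the 75th percentile 3 of these 5 calls were left. A further SKA2 probe set had a change of -1.54. Of 17 kinesins, KIF20A, which acts in cytokinesis, was the 1 called, at 6.21 and 4.97, and 15 had a change below 0.

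Lists for earlier steps of the cell cycle were read beside the shares over all genes, 1.05 percent higher and 1.34 percent lower. Of 39 DNA replication genes 2 were lower, the polymerase subunit POLE2 at 5.31 and 3.95 and the helicase subunit MCM6 at 7.03 and 6.01, and the median was -0.13 against -0.74 in U2-OS. MCM6 lost its call after quantile normalization. None of 22 homologous recombination and Fanconi genes was called. Of 21 G1 cyclin, CDK and E2F genes, CCNE1, the cyclin that activates CDK2 for entry into S phase, was the 1 called. It was higher, at 5.46 and 6.86, while in U2-OS it was at 7.76 and 7.80. CDKN3, a phosphatase that acts on CDKs and peaks in mitosis, was at 5.35 and 4.08. Replication-dependent histones, many of them near-identical copies, had 1 of 57 higher (H2AC25, at 4.47 and 5.59) and 2 lower (H2BC14, at 9.78 and 8.61, and H1-5, at 8.50 and 7.46). In bulk RNA, fewer cells in a phase of the cycle and less RNA per cell cannot be told apart.

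The extracellular matrix was read through several lists. Of 22 fibrillin, fibronectin and elastic fibre genes 4 were lower and 0 higher, with a median of -0.34. FBN2 and FBN1, the fibrillins of microfibrils, were at 7.85 and 5.98 and at 6.17 and 4.80. Fibronectin, FN1, was at 8.33 and 6.72, and the fibulin EFEMP1 at 5.66 and 4.65. Of 20 collagen genes 3 were lower and 0 higher: COL12A1 at 6.33 and 5.07, COL1A2 at 8.78 and 7.53, and COL3A1 at 8.28 and 7.15. COL1A2 was at 4.46 and 4.38 in U2-OS, where COL1A1 had a change of -1.75 against -0.94 in HOS. The 18 collagen processing genes had 0 called and a median of 0.005, and the 19 proteoglycan and hyaluronan genes 0 called and a median of -0.01. Of 28 TGF-beta and BMP genes 2 were lower and 0 higher. TGFB2, a ligand that drives matrix synthesis, was at 5.21 and 3.64, and FSTL1, a secreted BMP antagonist, at 9.41 and 7.93. TGFB1 went the other way, with a change of 0.81. Of 24 laminin and integrin genes 2 were lower and 0 higher. The integrin subunits ITGA4 and ITGA6 were at 5.80 and 4.55 and at 5.58 and 4.34, while the fibronectin receptor subunit ITGA5 had a change of 0.90. Of 24 matrix proteases and inhibitors 1 was higher, the inhibitor SERPINE2 at 5.98 and 7.38, and 1 lower, the membrane protease ADAM9 at 8.80 and 7.77, which lost its call after quantile normalization or cyclic loess.

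Actomyosin genes had the lowest median of the lists described, -0.67. Of 20 members 6 were lower and 0 higher, and 18 had a change below 0. MYH10, the heavy chain of nonmuscle myosin IIB, was at 7.91 and 6.15. The tropomyosins TPM1 and TPM4 were at 7.31 and 5.90 and at 8.66 and 7.56, the actin-binding CALD1 at 5.34 and 3.95, CNN3 at 8.62 and 7.58, and TAGLN at 8.68 and 7.68. The other TPM4 probe set had a change of -0.15, and the mean of its probe sets one of -0.625. TAGLN was at 5.18 and 5.03 in U2-OS, a change of -0.15. Of 17 YAP and TEAD targets 1 was lower, ANKRD1 at 4.62 and 3.52, and 14 had a change below 0, among them CCN1 with -0.78. Cell contact genes among the largest changes were the teneurin TENM2 at 5.32 and 3.31, the plakophilin PKP2 at 7.51 and 5.87, the gap junction gene GJA1 at 6.18 and 4.68, and the desmocollin DSC3 at 4.83 and 3.36. The membrane-binding annexin ANXA1 was at 8.50 and 6.94, while the other 14 annexin and S100 genes were not called.

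Of 18 fatty acid synthesis and desaturation genes 2 were lower and 0 higher, with a median of -0.29. These were the elongases ELOVL2 and ELOVL6, at 6.46 and 4.59 and at 5.47 and 4.27, while ELOVL5 had a change of -0.70, ELOVL1 of -0.14, ELOVL7 of 0.16 and ELOVL4 of 0.21. ELOVL2 was at 2.43 and 2.36 in U2-OS, low on both arrays. Of 19 fatty acid oxidation genes 3 were lower and 0 higher, 6 had a change above 0, and the median was -0.12. The lower ones, HIBCH, which acts in valine breakdown, ECI2 and ACADM, the medium-chain dehydrogenase, were at 5.77 and 4.17, at 5.17 and 3.73, and at 6.14 and 4.99. PLIN2, which coats lipid droplets, was the 1 of 13 droplet genes called and was higher, at 5.90 and 7.41. None of 18 sterol genes was called, with HMGCS1 at -0.92, CYP51A1 at -0.81 and IDI1 at -0.76. Respiratory chain, ribosome biogenesis, proteasome and metallothionein and zinc genes likewise had 0 of 20, 26, 26 and 12 members called. Their medians were -0.22, -0.05, 0.08 and -0.275. In WNT signalling, DKK1, a secreted inhibitor of WNT receptors, was the 1 called of 23, at 6.13 and 4.54 in HOS and 1.85 and 1.88 in U2-OS.

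Ribosomal protein genes moved little as a group. Of 67 cytosolic members 1 was higher, RPL10 at 7.53 and 8.90, and 1 lower, RPL36AL at 9.82 and 8.63, and the median was 0.08. Many of these genes have processed pseudogenes that share their sequence. Of 73 mitochondrial members 2 were lower, MRPL35 at 5.90 and 4.62 and MRPL32 at 7.81 and 6.66. In U2-OS none of these 4 genes was called.

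Several of the 30 largest changes lay outside the lists. PNRC1, a nuclear receptor coactivator, was higher at 5.94 and 7.65. Among the lower genes were the phospholipid flippase ATP8B1 at 4.72 and 2.85, the secreted serine protease PRSS23 at 5.43 and 3.66, and PLAC8 at 6.28 and 4.55. DDAH1, which degrades an inhibitor of nitric oxide synthase, was at 8.64 and 7.02, and the ER calcium-binding protein RCN2 at 7.69 and 6.11. DIS3L, a catalytic subunit of the cytoplasmic exosome, was at 6.94 and 5.47, and TMEM126A, a mitochondrial protein, at 4.94 and 3.37. PLAC8, DDAH1, RCN2 and DIS3L were also called lower in U2-OS, while PNRC1, ATP8B1, PRSS23 and TMEM126A were not. PAGE2B, a cancer-testis family gene with close copies, was at 4.34 and 2.66.

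Of 192 small nucleolar and Cajal body RNA genes measured, 23 were higher and 0 lower by size. Among 61 box H/ACA small nucleolar RNA genes, which guide pseudouridylation, 10 were higher and 0 lower, with a median of 0.38. Of 115 box C/D genes, which guide methylation of ribosomal RNA, 9 were higher and 0 lower, with a median of 0.32. Of 16 Cajal body RNAs, which guide modification of spliceosomal RNA, 4 were higher. With a floor at the 75th percentile of each array, 6 box H/ACA and 5 box C/D genes were called. SNORA5A was at 4.39 and 6.62, SCARNA7 at 6.74 and 8.91, and SNORD57 at 7.10 and 8.27. SCARNA9L was at 4.79 and 7.33, but its further probe set had a change of 0.32, and SCARNA9, a related copy, was at 7.80 and 9.05 with 0.33 for its further probe set. SNORA71A, SNORA71C and SNORA71D, 3 related copies, had changes of 1.06 to 1.07. Of 173 miRNA genes, read here through the array's gene-level probes, 0 were called, and 47 reached the floor.

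Most of these RNAs are processed out of introns, so the containing gene was read as well. For 14 of the 23 called small RNAs a measured gene contained them in the RefSeq table, 11 genes in all. One of them, SNHG17, the noncoding host of the SNORA71 copies, was itself called, at 8.37 and 9.39, but its further probe set had a change of 0.16. The 11 hosts had a median change of -0.03, from -0.45 to 1.02, and 6 were below 0. Hosts were matched by position only, without comparing strands. KIF9, at 1.55 and 2.22, and CEP295, at 2.16 and 2.09, did not reach the floor. SCARNA7 was higher by 2.17 while KPNA4, which contains it, was at 7.23 and 7.03. SNORA28 was higher by 1.33 while EIF5 was at 7.96 and 7.81. Over the 98 small RNAs with a measured host the median change was 0.355, and over their 76 hosts it was -0.065. How the labelling method recovers short RNAs on each array was not tested.

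Gene span moved with the change. Protein-coding genes with a mean level at or above that of the median gene were put in 10 bins by the length of their RefSeq span, from gene start to gene end, introns included. The median change was 0.11 in the shortest bin, whose median span was 2.58 kb, and -0.17 in the longest, at 189 kb. In the shortest bin 21 of 885 genes were higher and 9 lower, and in the longest 1 of 884 was higher and 34 lower. Genes called higher had a median span of 13.7 kb, those called lower of 42.4 kb, and all 8841 genes of 24.9 kb. U2-OS ran the same way, from 0.21 in the shortest bin to -0.27 in the longest. Several of the matrix genes named above, such as FBN1 and FBN2, are long, and the part of span in the group results was not tested.

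**Figure D4:**
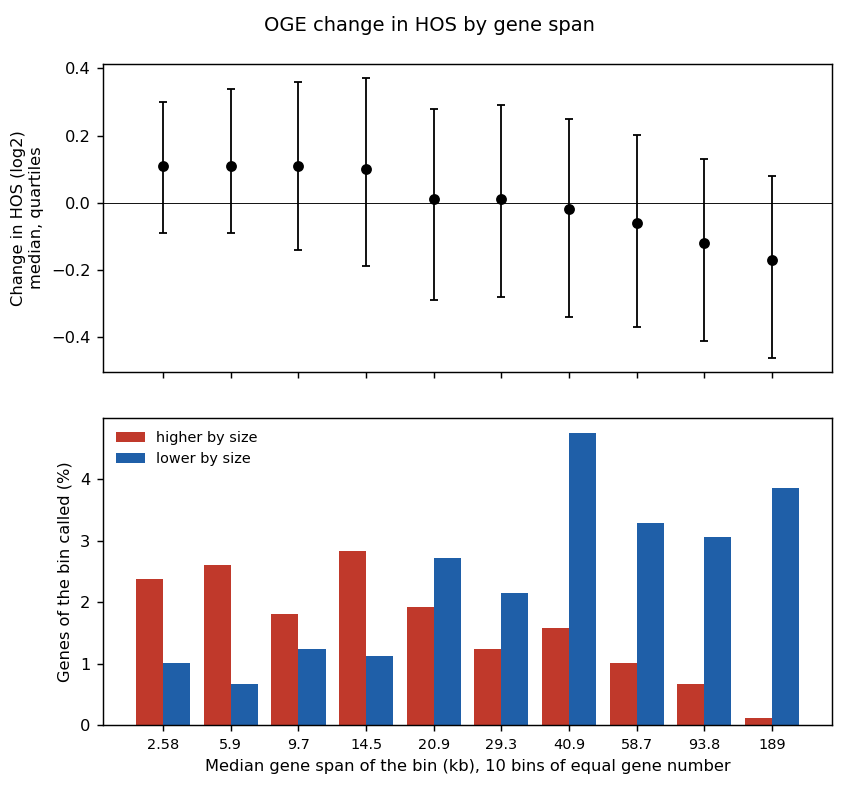
Change with OGE in HOS by gene span, for 8841 protein-coding genes in 10 bins of about equal gene number (horizontal axis, median span of the bin in kb). Above, points are the median log2 change and lines the quartiles; below, bars are the percent of genes called higher (red) or lower (blue), which run from 2.37 and 1.02 percent in the shortest bin to 0.113 and 3.85 percent in the longest.

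The U2-OS arrays gave the same measure in other cells. Their values entered the HOS rule only in the choice of probe set, for the 769 genes with more than 1. There, 338 genes were higher and 907 lower by size, 1.84 and 4.92 percent of all genes and 2.94 and 7.88 percent of those at the floor there, together 6.76 percent of all genes. Of the 193 genes higher in HOS, 176 had a change above 0 in U2-OS and 16 below, with a median of 0.81. Of the 247 lower genes, 220 had a change below 0 and 27 above, with a median of -0.98. Over the genes that reached the floor in HOS and in U2-OS, 49.4% were above and 49.8% below 0. The shared calls were 43.0% of the HOS and 24.6% of the U2-OS higher genes, and 47.8% of the HOS and 13% of the U2-OS lower genes. All 30 of the largest higher genes had the same sign in U2-OS, and 16 were called there. For the 30 largest lower genes 27 had the same sign and 16 were called. The 3 others were MAMDC2, DKK1 and MARCKS, an actin-linked protein kinase C substrate that was at 7.09 and 5.51 in HOS and 3.63 and 3.82 in U2-OS.

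Sizes differed between the lines without a change of sign. GDF15, DDIT4 and HMOX1 had changes of 1.96, 2.01 and 1.14 in HOS against 5.22, 4.89 and 4.19 in U2-OS. In the other direction, ARRDC3, GADD45G and SLC7A11 had 2.46, 2.13 and 2.26 in HOS against 0.35, 0.15 and 0.38. AMZ2P1, a pseudogene of AMZ2, and the clock repressor NR1D2 had 2.44 and 1.98 in HOS against 0.22 and 0.37. ARRDC3 reached much the same level in the treated cells of both lines, 6.97 in HOS and 7.07 in U2-OS, from control levels of 4.51 and 6.72. The control levels of SLC7A11 were 5.27 and 6.19. In all, 63 higher and 65 lower genes of HOS had a change under 0.5 in either direction in U2-OS. Without replicates, the difference between the lines has no test for any gene.

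**Figure D5:**
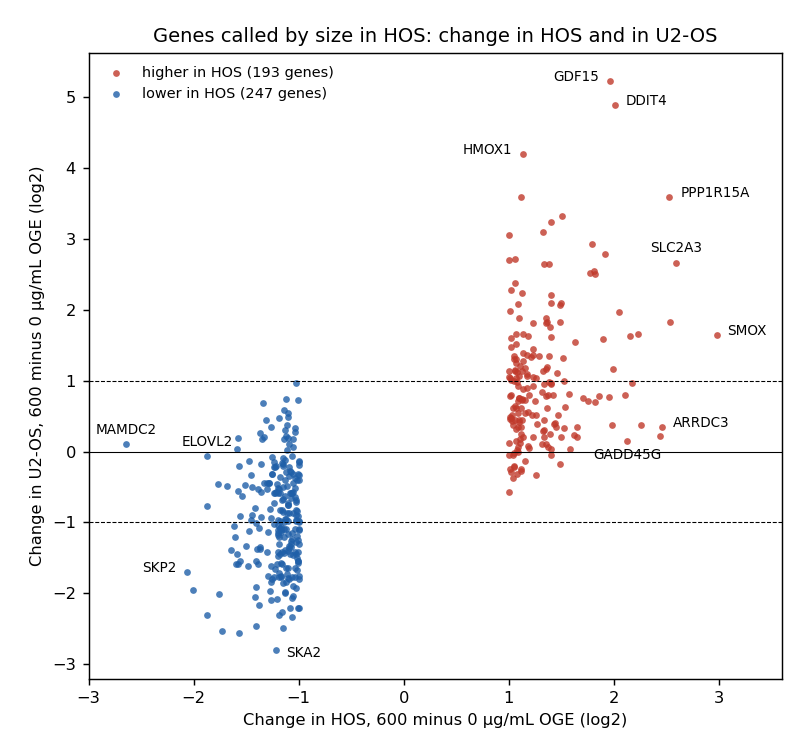
Change with OGE in HOS (horizontal axis) and in U2-OS (vertical axis), log2, for the 440 genes called by size in HOS. Dashed lines mark 2-fold in U2-OS; most red points, the 193 genes higher in HOS, lie above 0, and most blue points, the 247 lower ones, below it, with MAMDC2 and ELOVL2 near 0.

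Some genes were read by more than 1 probe set on the same arrays. Of 30 called genes with further probe sets, 26 had the same sign in all of them, 10 had another past 2-fold in the same direction, and 16 had another with a change under 0.5. NEU1, a lysosomal sialidase, had changes of 1.05, 1.09 and 1.09, and the chromatin reader BRD2 of 1.33 and 1.35. Opposite signs were seen in 4 genes: LAYN with -1.58 and 0.33, PCLAF with -1.02 and 0.16, MARK2P21 with -1.37 and 0.31, and SEPT5-GP1BB with -1.41 and 0.24. Changes between the 2 arrays grew with level. With genes in 10 bins by level, of 1832 to 1848 genes each, the median absolute change was 0.15 in the lowest bin and 0.33 in the highest, and the 95th percentile 0.47 and 1.04, so 2-fold changes were less rare among highly expressed genes.

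Renormalizing the arrays ended some calls that lay at the threshold. After quantile normalization the change of MYC was 0.96, that of CDKN1A 0.9975, of SLC43A1 0.97 and of DNAJB4 0.985. On the lower side AURKA had -0.96, BUB1B -0.995, CCNB2 -0.94, PRC1 -0.95, MCM6 -0.98, TAGLN -0.92, CNN3 -0.96, SMS -0.98, ADAM9 -0.95 and H1-5 -0.965. IRF1 had 0.9997 after cyclic loess. None of these moved by more than 0.1.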

How the data were processed

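Total RNA of HOS and U2-OS, with 0 or 600 μg/mL OGE for 24 h, was labelled with biotin and hybridised, each to its own array. What the authors deposited are log2 values from RMA, named without a version in the submitters' processing notes. The log base is inferred from how large the values are. RMA sets the arrays to a common distribution, so a shift of all genes would not show, and it understates changes of low genes. The platform annotation, of 2016, gave 1 symbol for 19460 probe sets, several for 1754 and none for 12083, and 19429 were matched to RefSeq (GRCh38.p14) by gene ID. Spans and promoters came from RefSeq. The genome build used to design the probes was not used here.

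Changes, counts, list medians and motif shares were computed with Python 3.11.15 and pandas 2.3.3, and alternative normalizations with limma 3.58.1 in R 4.3.3. With 1 array per group no test was run, and the number of arrays limits the precision. The calling step was tested on simulated data with changes well past the threshold, which does not describe calls near it. The genes and the gene lists were chosen with earlier results of these data known. Named genes are the 30 largest in each direction, up to 6 members of each list by size of change and all called members, up to 8 genes in each direction with the opposite sign in U2-OS, cell markers, and 3 genes on each side of the threshold in each direction. Genes outside this rule, such as NEU1, BRD2, SLC2A14, SNHG17, other hosts and those with discordant probe sets, were chosen after their values were seen, and the reading of host genes was added then too. Alternatives were thresholds of 1.5-fold and 3-fold, no floor or the 75th percentile, quantile normalization, cyclic loess, the mean of probe sets, and list members at or above the median level only.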

Additional observations from a re-analysis of the deposited data

Results flagged for a closer look

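Of the genes called in HOS, 16 higher and 27 lower ones had a U2-OS change of the other sign. The 11 higher and 10 lower ones among the named genes are given as values, and the difference between the lines was not tested. Higher in HOS were CXCR4, a chemokine receptor, by 1.49 (U2-OS -0.17), SERPINE2 by 1.40 (-0.05), STC2 by 1.26 (-0.33), PGF, a VEGF family ligand, by 1.15 (-0.13), GBGT1 by 1.12 (-0.24), RBAK by 1.12 (-0.28), POU5F1B by 1.08 (-0.31), LINC01128 by 1.05 (-0.22), DNAJB4 by 1.02 (-0.29), KRABD4 by 1.00 (-0.05) and IER3 by 1.00 (-0.57). Lower in HOS were MAMDC2 with -2.64 (U2-OS 0.10), DKK1 with -1.59 (0.03), MARCKS with -1.58 (0.19), MARK2P21 with -1.37 (0.26), SH2D4A with -1.35 (0.18), POLR3G, an RNA polymerase III subunit, with -1.34 (0.69), KRTAP5-5 with -1.33 (0.20), NPR3 with -1.31 (0.44), ANKRD1 with -1.10 (0.55) and H1-5 with -1.04 (0.27). None of these U2-OS changes reached 2-fold.

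Probe sets outside the gene table also changed. Of the 12083 with no symbol, 258 were higher in HOS and 245 lower, 67 and 87 of them also in U2-OS. Of the 1754 with several symbols, 37 were higher and 21 lower, 31 and 10 also in U2-OS. Their median change was 0.06 in each set.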

How the results depend on the processing

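With 1.5-fold as the threshold, 842 genes were higher and 1097 lower in HOS, 315 and 629 of them also in U2-OS, and 40 genes were called in opposite directions in the lines. At 3-fold these were 32 and 16, with 14 and 5 shared, a shift that follows from the threshold itself. Opposite calls numbered 0 in the main setting, 2 with no floor and 1 after quantile normalization; the cause was not tested. The HOS counts otherwise lay between 138 and 214 higher and between 183 and 269 lower, and 399 of the 440 calls were kept after quantile normalization, 415 after cyclic loess and 421 with the mean of probe sets. Scaling moved the median of all genes to -0.0125 and -0.0179 in the first 2. For named genes 1318 comparisons stayed on the same side, 9 were newly called, 35 lost the call and 0 reversed. Calls lost after quantile normalization or cyclic loess, or with both, lay near the threshold, such as MYC, CDKN1A, AURKA, BUB1B, MCM6, PRC1 and TAGLN. With the mean of probe sets LAYN had -0.625, TPM4 -0.625, NPR3 -0.825, SCARNA9 0.79, SLC1A5 0.71 and IER3 0.85. List medians moved in 20 of 254 comparisons and reversed in 0. No paired analysis was possible because the HOS comparison has 1 array at each dose; a fit over both lines, with the line as a block, would test their mean and was not run. The table gives no detection calls, so how far a low level stands above background is not known.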
